A study of Mus musculus with 18 samples.

Results

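The MHC class I antigen presentation pathway was followed through 10 of the 18397 genes in the gene table, across 6 groups of 3 libraries. They were chosen by symbol: the heavy chains H2-K1 and H2-D1, the light chain B2m, the peptide transporter subunits Tap1 and Tap2, the loading chaperone Tapbp (tapasin), the inducible proteasome subunits Psmb8, Psmb9 and Psmb10, and the transactivator Nlrc5. All 10 passed the filter on low counts, as did 12245 genes in all. The libraries carry poly(A) RNA of mouse cells labelled RAW264.7, a macrophage line raised from a virus-induced mouse tumour. The groups are named Soft, Soft+mito, Soft-TW, Stiff, Stiff+mito and Stiff-TW after the matrix and the treatment. The labels give no stiffness value, dose or duration and do not spell out mito or TW, so these names are used as they stand. Soft and Stiff are the untreated groups of their matrix. Whether the 3 biosamples of a group were separate cultures is not given, so the spread behind each p-value may be a technical one between libraries of the same cells.

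Class I molecules show short peptides from a cell's own proteins to cytotoxic T cells. The proteasome cuts proteins into peptides, the TAP transporter carries these into the endoplasmic reticulum, and tapasin holds an empty heavy chain with B2m beside TAP until a peptide is bound. Interferon replaces the constitutive catalytic subunits Psmb5, Psmb6 and Psmb7 with Psmb8, Psmb9 and Psmb10, which makes the immunoproteasome. Nlrc5 acts at class I promoters as a partner of the RFX, CREB/ATF and NF-Y factors bound there, and several genes of the pathway also answer to IRF, STAT and NF-kappaB factors. Nearly all nucleated cells make class I, and macrophages make it strongly after interferon.

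The genes lie close together: 7 of the 10 are on chromosome 17, in the MHC. In the RefSeq annotation of GRCm38.p6, Tapbp starts at position 33919478 and H2-D1 ends 1348020 bases from there. Psmb9, Tap1, Psmb8 and Tap2 share a stretch of 34292 bases. Psmb9 (34182030 to 34187330, minus strand) and Tap1 (34187556 to 34197225, plus strand) are transcribed away from each other, with 225 bases between them. B2m is on chromosome 2 (122147687 to 122153082), while Psmb10 (105935728 to 105938392) and Nlrc5 (94434335 to 94527272) are on chromosome 8. Promoters are printed for the genes whose levels moved together most closely, and for Tapbp, whose levels moved apart from theirs. Each is the 250 bases before a transcript start in RefSeq (GRCm38.p6), 5′ to 3′ on the gene's strand. The promoter table matched 8 of the 10 genes, all but Tap2 and Nlrc5. Capitals mark motifs found by a search of both strands.
H2-K1 (chr17:34000334-34000583, minus strand): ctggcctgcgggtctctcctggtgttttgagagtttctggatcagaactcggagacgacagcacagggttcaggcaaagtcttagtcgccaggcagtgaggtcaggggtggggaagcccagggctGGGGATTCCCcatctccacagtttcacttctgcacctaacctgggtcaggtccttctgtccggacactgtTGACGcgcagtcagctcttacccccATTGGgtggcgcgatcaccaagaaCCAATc
H2-D1 (chr17:35262844-35263093, plus strand): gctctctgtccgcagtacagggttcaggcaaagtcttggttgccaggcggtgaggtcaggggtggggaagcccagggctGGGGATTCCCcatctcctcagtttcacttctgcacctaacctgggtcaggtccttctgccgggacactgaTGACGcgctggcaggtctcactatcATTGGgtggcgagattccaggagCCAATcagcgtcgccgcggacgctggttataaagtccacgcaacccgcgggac
B2m (chr2:122147437-122147686, plus strand): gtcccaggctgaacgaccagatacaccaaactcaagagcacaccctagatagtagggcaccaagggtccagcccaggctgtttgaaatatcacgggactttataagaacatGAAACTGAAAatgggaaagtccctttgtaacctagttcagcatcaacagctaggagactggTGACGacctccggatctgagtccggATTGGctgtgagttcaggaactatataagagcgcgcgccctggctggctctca
Tap1 (chr17:34187306-34187555, plus strand): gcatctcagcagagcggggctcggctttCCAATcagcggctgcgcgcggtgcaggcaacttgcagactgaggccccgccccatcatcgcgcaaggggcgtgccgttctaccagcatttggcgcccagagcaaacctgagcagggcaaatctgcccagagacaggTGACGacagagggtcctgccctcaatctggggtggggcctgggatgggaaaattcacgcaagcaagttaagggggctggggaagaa
Psmb8 (chr17:34197945-34198194, plus strand): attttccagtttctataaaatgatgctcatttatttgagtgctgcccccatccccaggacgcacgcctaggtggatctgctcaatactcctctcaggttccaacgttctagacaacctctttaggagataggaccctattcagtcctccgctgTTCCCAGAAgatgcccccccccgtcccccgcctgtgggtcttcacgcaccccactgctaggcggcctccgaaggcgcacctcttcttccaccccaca
Tapbp (chr17:33919228-33919477, plus strand): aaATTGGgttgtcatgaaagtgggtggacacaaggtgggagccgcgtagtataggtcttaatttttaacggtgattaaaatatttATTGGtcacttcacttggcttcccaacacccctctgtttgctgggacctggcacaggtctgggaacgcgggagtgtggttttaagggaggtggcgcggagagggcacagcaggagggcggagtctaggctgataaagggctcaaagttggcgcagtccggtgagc

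The motifs searched were TGACG (the core of a CREB/ATF site), CCAAT (bound by NF-Y, ATTGG on the other strand), GGG and TTCCC with 2 bases between them (NF-kappaB), a pair of GAAA with 2 bases between them (IRF) and TTCNNNGAA (STAT). The H2-K1, H2-D1 and B2m promoters held TGACG and ATTGG in the same order with 20 bases between them, first base at -55, -101 and -78 from the start site. The H2-K1 table entry has a second start site, 14 bases upstream, with the same pair. Both H2-K1 start sites lie inside the annotated gene, whose outer end is at 34000619 on the minus strand. The -55 is thus counted from an inner transcript start. Their 3 stretches are shown to compare the spacing, with the motifs in capitals.
B2m pair: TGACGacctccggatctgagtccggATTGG
H2-D1 pair: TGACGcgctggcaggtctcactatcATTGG
H2-K1 pair: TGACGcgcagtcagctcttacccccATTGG
Of 32851 promoter windows of this length, 30 (0.0913%) held this pair at this spacing on either strand. They belong to 26 genes, 4 of which are among the 24 class I heavy chain and B2m genes in the table (H2-K1, H2-D1, B2m and H2-M3). Only the spacing that H2-K1, H2-D1 and B2m share was counted, so the count describes it and is no independent test. By themselves TGACG is in 17.8% of the windows and CCAAT in 33.8%. The NF-kappaB letters were found in H2-K1 and H2-D1 (1.53% of windows), the IRF letters in B2m (2.98%) and the STAT letters in Psmb8 (7.02%). Tap1 and Psmb9 share 225 bases of their windows, with TGACG and CCAAT at another spacing. Aligned on the pair over 190 bases, the H2-K1 window of the second start site and the H2-D1 promoter are 87.4% identical. Tapbp had CCAAT at both marked places and none of the other motifs, and the Psmb10 window had none of them. The search took exact letters only, so a site with other letters stays unmarked. A promoter without a mark is thus not shown to lack a site. These matches describe letters and show no binding.

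The 18 libraries held 16054637 to 16887244 estimated counts each, and no pair of replicates was identical. The labelled cell type was checked against its markers. Of 20 macrophage and myeloid markers 18 were in the table, 8 passed the filter and 3 had a mean of at least 10 TPM (a level scaled for transcript length and to the same total in each library). Csf1r reached at most 1.1 TPM, Adgre1 0.14, Ptprc 0.27 and Itgam 0.41, so these defining markers of macrophages and leukocytes were at or near 0. Other genes of the same list were present: Cd14 (20.05 to 34.25 TPM), Mertk (12.3 to 25.0), Lyz2 (5.07 to 30.8) and Cd68 (3.95 to 15.0). Of the epithelial markers Krt8 (430.9 to 730 TPM) and Krt18 (233 to 319) were abundant, while Epcam, Cdh1, Krt19 and Cldn4 reached at most 0.34. Of the mesenchymal markers Vim (1413 to 4229 TPM) was abundant, Col1a2 (19.8 to 60.3) and Pdgfra (25.8 to 68.2) were lower, and Thy1 and Dcn reached at most 0.07 and 1.37. Markers of T and NK cells summed to at most 0.44 TPM, those of B cells to at most 1.81 and those of dendritic cells to at most 8.58. The values below are those of the libraries labelled RAW264.7.

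Levels differed widely between the genes. B2m was the most abundant, at 2505 to 3949 TPM over the 18 libraries, followed by H2-K1 (684 to 1115) and H2-D1 (369 to 553). Tapbp (125 to 213), Tap2 (59.7 to 95.3) and Psmb8 (33.1 to 101) were lower. Psmb9 (12.1 to 37.5), Tap1 (10.2 to 25.0), Psmb10 (10.2 to 15.0) and Nlrc5 (5.20 to 9.90) were the least abundant. Within a gene, the highest group mean exceeded the lowest by 2.84-fold for Psmb8, 2.71-fold for Psmb9 and 2.33-fold for Tap1. It did so by 1.46- to 1.70-fold for H2-K1, H2-D1, B2m, Tap2, Tapbp and Nlrc5, and by 1.22-fold for Psmb10. Stiff-TW had the highest mean of 7 of the 10 genes, while Tap2 was highest in Stiff+mito, and Psmb10 and Nlrc5 in Stiff.

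**Figure D1:**
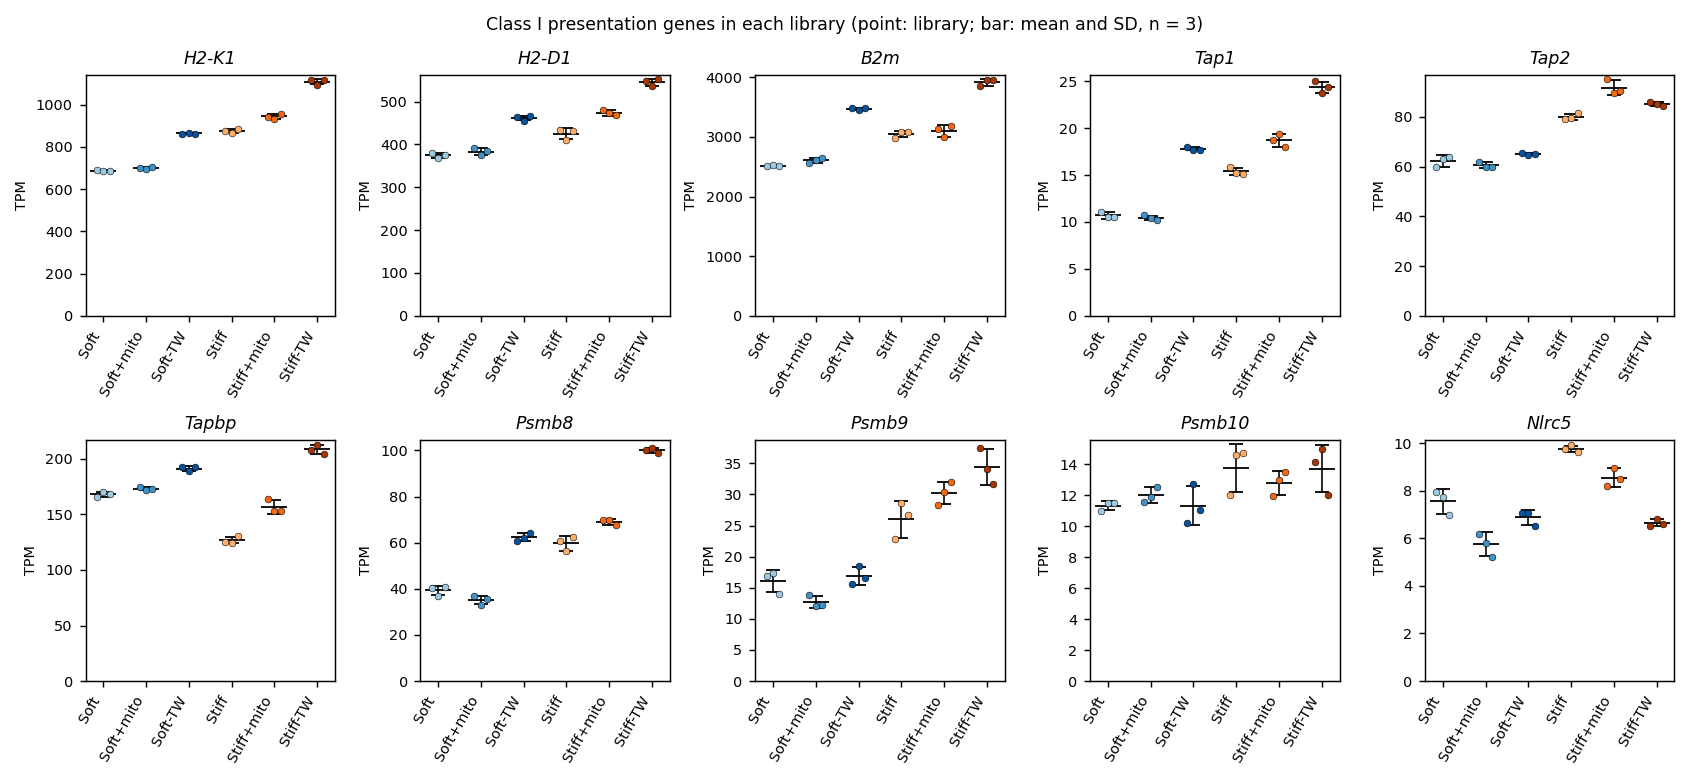
TPM of the 10 genes (vertical axis, from 0) in each of the 6 groups (horizontal axis). Points are libraries, bars the mean and SD of 3. B2m, H2-K1, H2-D1, Tap1 and Psmb8 share a profile with the Stiff-TW libraries on top, Tapbp is lowest in Stiff (126.9 TPM), and Nlrc5 is highest there (9.75 TPM).

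On the stiff matrix alone, 9 of the 10 genes were higher than on the soft matrix alone. In Stiff against Soft, 9 genes rose and 1 fell at an adjusted p under 0.05 in edgeR's quasi-likelihood test, where 53.8% of all genes tested were called (29.1% higher, 24.7% lower). For 10 of the 10 the Stiff libraries all lay on one side of the Soft ones, as for 58.2% of all genes. Tapbp was the gene that fell. The median log2 change of the 10 was 0.433, against 0.015 over all genes. Replicate libraries differed little (chi-square per degree of freedom 1.18 to 2.13 between them, where counting alone gives about 1) and calls were common, so sizes are given beside them.

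With mito on the soft matrix, 4 genes rose, 1 fell and 5 were not called, at a background of 26.7% called (14.8% higher, 11.9% lower). H2-K1, H2-D1, B2m and Tapbp rose, all by less than 0.15 on the log2 scale, and Nlrc5 fell. Libraries of 8 of the 10 genes did not overlap in normalised counts, against 37.6% of all genes. These 4 rises depended on the scale: with limma on log2(TPM + 1), where the median gene moved by -0.0724, none of the 4 was called and 3 genes fell (Psmb8, Psmb9 and Nlrc5). With mito on the stiff matrix, 8 rose, 1 fell (Nlrc5) and Psmb10 was not called, at a background of 33.5% (15.6% higher, 17.8% lower), and 7 of the 10 did not overlap (43.7% of all genes). The median log2 change of the 10 genes was 0.0906 on the soft matrix (0.00726 over all genes) and 0.182 on the stiff (0.000582).

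With TW on the soft matrix, 7 genes rose and 3 were not called (Psmb9, Psmb10 and Nlrc5), at a background of 56.9% (28.9% higher, 28% lower), and 7 of the 10 did not overlap (60.5%). With TW on the stiff matrix, 8 rose, 1 fell (Nlrc5) and Psmb10 was not called, at a background of 69.6% (35.5% higher, 34.1% lower), and 9 of the 10 did not overlap (72.2%). The median log2 changes of the 10 genes were 0.354 and 0.439, against -0.00373 and 0.00909 over all genes.

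Summed cell type markers moved with the matrix and with each treatment. The macrophage and myeloid markers summed to 52.3 to 54.6 TPM in Soft, 63.0 to 67.4 in Soft+mito and 102 to 104.4 in Soft-TW, and to 45.3 to 48.9 in Stiff, 58.6 to 61.8 in Stiff+mito and 79.3 to 82.3 in Stiff-TW. The epithelial markers summed to 998.9 to 1028 TPM in Soft, 1031 to 1043 in Soft+mito and 764 to 783 in Soft-TW, against 695.5 to 713.5, 733 to 759 and 670.6 to 682 in the matching stiff groups. The mesenchymal markers, of which Vim is the main part, summed to 2202 to 2278, 2521 to 2590 and 3041 to 3116 TPM on the soft matrix, and to 1498 to 1531, 2068 to 2170 and 4342 to 4377 on the stiff. The myeloid and mesenchymal sums were thus lower in Stiff than in Soft and higher with mito and with TW on each matrix, and the epithelial sum was lower in Stiff and lower with TW. Their part in the results was not tested, and in bulk RNA fewer cells of a type and less RNA per cell cannot be told apart.

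Between the matrices, most of the genes were also higher on the stiff side under each treatment. In Stiff+mito against Soft+mito, 8 genes rose, 1 fell (Tapbp) and Psmb10 was not called, at a background of 63.5% (32.7% higher, 30.8% lower), and 9 of the 10 did not overlap (65.4%). In Stiff-TW against Soft-TW, 9 rose and Nlrc5 was not called (log2 change -0.03 ± 0.056), at a background of 54.3% (27.6% higher, 26.7% lower), and 8 of the 10 did not overlap (59.9%). The comparisons with Soft share the Soft libraries, and those with Stiff share the Stiff libraries. The change with mito itself differed between the matrices for 5 genes, 4 with a more positive value on the stiff matrix and 1 with a lower value, where 23.6% of all genes were called (10.4% higher, 13.1% lower). For the change with TW it was 3 genes, 1 more positive and 2 lower, where 36.1% were called (16.4% higher, 19.7% lower).

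**Figure D2:**
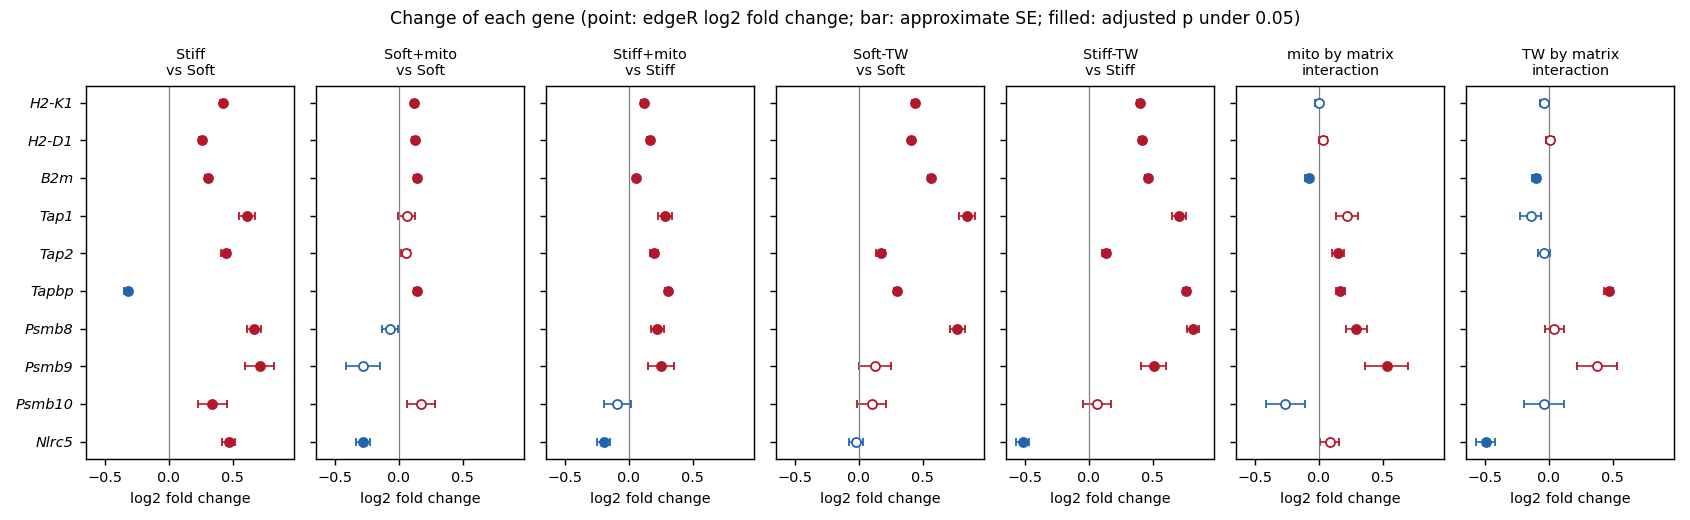
Log2 fold change (horizontal axis) of each gene (vertical axis) in the 5 comparisons with an untreated group and the 2 interactions with the matrix. Points are edgeR estimates, bars approximate standard errors, filled points have an adjusted p under 0.05. Tapbp stands alone below 0 in Stiff against Soft (-0.32), and Nlrc5 falls in Stiff-TW against Stiff (-0.52) while 8 others rise.

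The heavy chains and the light chain rose by small amounts. H2-K1, a classical class I heavy chain, had 689, 684 and 684 TPM in the Soft libraries and 877, 866 and 883 in Stiff. It had 701, 697 and 705 TPM in Soft+mito and 943, 934 and 955 in Stiff+mito. In Soft-TW it had 862, 867 and 860 TPM, and in Stiff-TW 1115, 1094 and 1115. Every Stiff library was above every Soft library, and every TW library above its own matrix alone, while Soft-TW and Stiff overlapped. The log2 change of H2-K1 was 0.42 ± 0.020 (SE, n = 3 libraries a group, edgeR adjusted p 9.38e-38) in Stiff against Soft. With TW it was 0.44 on the soft and 0.40 on the stiff matrix, and with mito 0.12 on each.

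H2-D1, the second classical heavy chain, had 380, 369 and 374 TPM in Soft and 433, 409.7 and 432 in Stiff. The values were 391, 376 and 384 TPM in Soft+mito, and 480, 473 and 468 in Stiff+mito. The TW libraries had 465, 456 and 466 TPM on the soft and 547, 537 and 553 on the stiff matrix. Its order of group means was Stiff-TW, Stiff+mito, Soft-TW, Stiff, Soft+mito and Soft, and only the last neighbours overlapped. H2-D1 rose by 0.26 in Stiff against Soft on the log2 scale, and by 0.41 and 0.42 with TW on the soft and stiff matrix. Both heavy chains share sequence with other class I genes: 1.12% of 75-base stretches of H2-K1 and 6.15% of those of H2-D1 occur in other genes. Their counts were not whole in 18 of 18 libraries, so reads had been divided, and their values are uncertain in that respect. Class I heavy chains also differ between mouse strains, and counts against one reference depend on the alleles of the cells.

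B2m, the light chain shared by all class I molecules, had no such overlap (0% of stretches shared) and whole counts throughout. Its TPM was 2505, 2536 and 2518 in Soft, 2563, 2616 and 2647 in Soft+mito, and 3482, 3454 and 3489.8 in Soft-TW. On the stiff matrix it was 2987, 3079 and 3081 alone, 3138, 2991 and 3189 with mito, and 3849.9, 3949 and 3949 with TW. The TW libraries were the highest on each matrix, and Stiff and Stiff+mito overlapped. The log2 change was 0.56 ± 0.021 in Soft-TW against Soft, 0.46 ± 0.021 in Stiff-TW against Stiff and 0.31 ± 0.022 in Stiff against Soft (edgeR adjusted p 3.84e-32, 1.78e-28 and 2.91e-19). The rise with mito on the stiff matrix was 0.06 ± 0.021 (edgeR adjusted p 0.0272). It was lost with DESeq2 (adjusted p 0.0693), with curated transcripts alone (0.118), with limma on log2(TPM + 1) (0.381) and when Stiff replicate 1 or 2 or Stiff+mito replicate 1 or 3 was left out, and over all alternatives the adjusted p ran from 0.00344 to 0.381. Without those libraries the log2 changes were 0.0452, 0.0607, 0.0563 and 0.0394, and with limma it was 0.0263. Relative to the heavy chains, B2m had 2.19 ± 0.059 (SD) times the summed TPM of H2-K1 and H2-D1 in Stiff+mito, the lowest mean, and 2.62 ± 0.011 times in Soft-TW, the highest. In the other groups the mean ratio was 2.35 to 2.41.

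The transporter subunits rose by different amounts with TW. Tap1, the first TAP subunit, had 11.1, 10.5 and 10.5 TPM in Soft and 10.7, 10.4 and 10.2 in Soft+mito, which overlapped. It had 15.8, 15.2 and 15.2 TPM in Stiff, 18.8, 19.4 and 18.0 in Stiff+mito, 18.0, 17.7 and 17.7 in Soft-TW and 25.0, 23.8 and 24.3 in Stiff-TW. Its log2 change was 0.85 ± 0.060 with TW on the soft matrix, the largest of the 10 genes there (edgeR adjusted p 3.07e-24). It was 0.70 ± 0.052 with TW on the stiff matrix and 0.61 ± 0.063 in Stiff against Soft (edgeR adjusted p 1.49e-23 and 2.92e-15). With mito it was 0.28 ± 0.055 on the stiff matrix (edgeR adjusted p 1.51e-05) and 0.06 ± 0.068 on the soft, where it was not called (edgeR adjusted p 0.549). The difference between these missed the threshold (0.22, edgeR adjusted p 0.0543). It passed with library totals as the scale, the compared groups alone, limma on log2(TPM + 1) and without Stiff+mito replicate 3 (0.233 to 0.294).

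Tap2, the partner of Tap1 in the transporter, had 59.8, 63.1 and 64.1 TPM in Soft and 61.9, 60.1 and 59.7 in Soft+mito. It had 79.2, 79.5 and 81.5 TPM in Stiff, and 95.3, 89.8 and 90.2 in Stiff+mito, its highest group. The TW libraries had 65.4, 64.8 and 65.0 TPM on the soft and 86.2, 85.1 and 84.3 on the stiff matrix. Each stiff library was thus above each soft library, whatever the treatment. The log2 change with TW was 0.17 ± 0.035 on the soft matrix (0.0619 with limma on log2(TPM + 1), not called) and 0.14 ± 0.032 on the stiff matrix, against 0.85 and 0.70 for Tap1. The stiff minus soft change was 0.59 ± 0.032 under mito and 0.41 ± 0.033 under TW.

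Tapbp, which bridges class I to TAP, was the gene that fell on the stiff matrix. It had 165.5, 169.8 and 168.5 TPM in Soft and 126, 125 and 130.3 in Stiff, which did not overlap. With mito it had 175, 172 and 173 TPM on the soft matrix and 164, 153 and 153 on the stiff. With TW it had 192, 189 and 192 TPM on the soft and 208, 213 and 204 on the stiff, so that Stiff-TW was its highest group. The log2 change was -0.32 ± 0.025 in Stiff against Soft (edgeR adjusted p 9.39e-22) and -0.15 ± 0.024 in Stiff+mito against Soft+mito. In Stiff-TW against Soft-TW it was 0.15 ± 0.023 (edgeR adjusted p 4.98e-08), so the sign of the matrix difference changed under TW. The rise with TW was 0.76 ± 0.024 on the stiff and 0.30 ± 0.024 on the soft matrix, and the test of that difference gave 0.47 ± 0.034 (edgeR adjusted p 5.62e-23). Of its transcripts, NM_009318 took 55.7% to 60.4% of the counts and NM_001025313 the rest, as group means. Of its 75-base stretches 1.36% occur in other genes.

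The immunoproteasome subunits split into 2 that moved and 1 that moved little. Psmb8, which takes the place of Psmb5, had 40.2, 37.0 and 40.8 TPM in Soft and 36.8, 33.1 and 35.7 in Soft+mito. It had 60.7, 56.2 and 62.6 TPM in Stiff, 69.8, 69.8 and 67.6 in Stiff+mito, 60.9, 62.2 and 64.2 in Soft-TW, and 100.3, 101 and 98.8 in Stiff-TW. The Stiff-TW libraries stood apart from all others. Its log2 change was 0.66 ± 0.057 in Stiff against Soft, 0.77 ± 0.056 with TW on the soft and 0.81 ± 0.047 with TW on the stiff matrix (edgeR adjusted p 3.57e-19, 1.26e-23 and 2.15e-31). With mito it was 0.22 ± 0.050 on the stiff matrix (edgeR adjusted p 0.000176) and -0.07 ± 0.063 on the soft, not called. The difference between those mito changes was 0.29 ± 0.081 (edgeR adjusted p 0.00388).

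Psmb9, which takes the place of Psmb6, rested on fewer counts (69 to 212 a library). It had 16.8, 17.4 and 14.1 TPM in Soft, 13.8, 12.1 and 12.2 in Soft+mito, and 15.7, 18.5 and 16.6 in Soft-TW. On the stiff matrix it had 22.8, 28.5 and 26.7 TPM alone, 28.4, 30.4 and 32.0 with mito, and 37.5, 34.1 and 31.7 with TW. All 9 stiff libraries were above all 9 soft ones. Psmb9 had the largest stiff minus soft change of the 10 genes in each of the 3 settings: 0.71 ± 0.11 untreated, 1.24 ± 0.12 under mito and 1.09 ± 0.10 under TW. With TW it rose by 0.51 ± 0.097 on the stiff matrix (edgeR adjusted p 2.28e-06) and was not called on the soft (0.13 ± 0.12). The difference between these missed the threshold (0.38 ± 0.16, edgeR adjusted p 0.052). It passed with library totals as the scale (0.385) and without Soft replicate 3 (0.452), Soft-TW replicate 2 (0.423), Stiff replicate 2 (0.462) or Stiff-TW replicate 3 (0.442), and was positive under all 19 alternatives (edgeR, DESeq2 or limma adjusted p 0.0234 to 0.341). The rise with mito on the stiff matrix (0.25 ± 0.10, edgeR adjusted p 0.0433) was lost with DESeq2, with curated transcripts alone, with limma on log2(TPM + 1) and with no filter on low counts (0.214 to 0.256). It was also lost without Stiff replicate 1 (0.149), Stiff replicate 3 (0.271), Stiff+mito replicate 2 (0.241) or Stiff+mito replicate 3 (0.208). Its adjusted p ran from 0.0173 to 0.328 over the alternatives.

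Psmb10, which takes the place of Psmb7, varied least. It had 11.0, 11.5 and 11.5 TPM in Soft, 11.6, 11.9 and 12.6 in Soft+mito, and 10.2, 12.7 and 11.0 in Soft-TW. On the stiff matrix it had 12.0, 14.6 and 14.7 TPM alone, 12.0, 13.0 and 13.5 with mito, and 14.2, 15.0 and 12.0 with TW. The ranges of mean ± SD of neighbouring groups overlapped. It rose in Stiff against Soft (0.34 ± 0.11, edgeR adjusted p 0.00637, range over alternatives 0.00164 to 0.0567, the last from DESeq2). It also rose in Stiff-TW against Soft-TW (0.30 ± 0.11, edgeR adjusted p 0.0143). That call was lost without Soft-TW replicate 1 (0.231), Stiff-TW replicate 1 (0.273) or Stiff-TW replicate 2 (0.229), and with DESeq2. Psmb10 had 104 to 151 counts a library.

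Against the constitutive subunit it replaces, each inducible subunit took a larger share of the pair's summed TPM on the stiff matrix than on the soft matrix under the same treatment. Psmb8 made up 10.2% ± 0.61 (SD, n = 3) of the Psmb8 and Psmb5 pair in Soft, 8.83% ± 0.65 in Soft+mito and 18.1% ± 0.21 in Soft-TW. On the stiff matrix it made up 15.3% ± 0.63 alone, 18.2% ± 0.20 with mito and 29.1% ± 0.98 with TW. Psmb9 made up 7.21% ± 1.0 of its pair with Psmb6 in Soft, 5.55% ± 0.23 in Soft+mito and 8.12% ± 0.43 in Soft-TW, against 10.9% ± 1.1, 13.2% ± 1.3 and 16.9% ± 1.6 in the matching stiff groups. Psmb10 stayed between 3.88% and 6.12% of its pair with Psmb7, as group means. The partners differed between the matrices too. Psmb7 was lower on the stiff matrix by 0.19 untreated, 0.44 under mito and 0.17 under TW on the log2 scale, while Psmb10 was not called under mito. Psmb5 and Psmb6 were not called in Stiff against Soft and were lower on the stiff matrix under mito and under TW. In Stiff-TW against Stiff the constitutive partners fell: Psmb5 by 0.34 ± 0.034 and Psmb6 by 0.25 ± 0.038 on the log2 scale (edgeR adjusted p 5.16e-16 and 1.18e-08). These are shares of RNA and say nothing of assembled proteasomes.

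**Figure D3:**
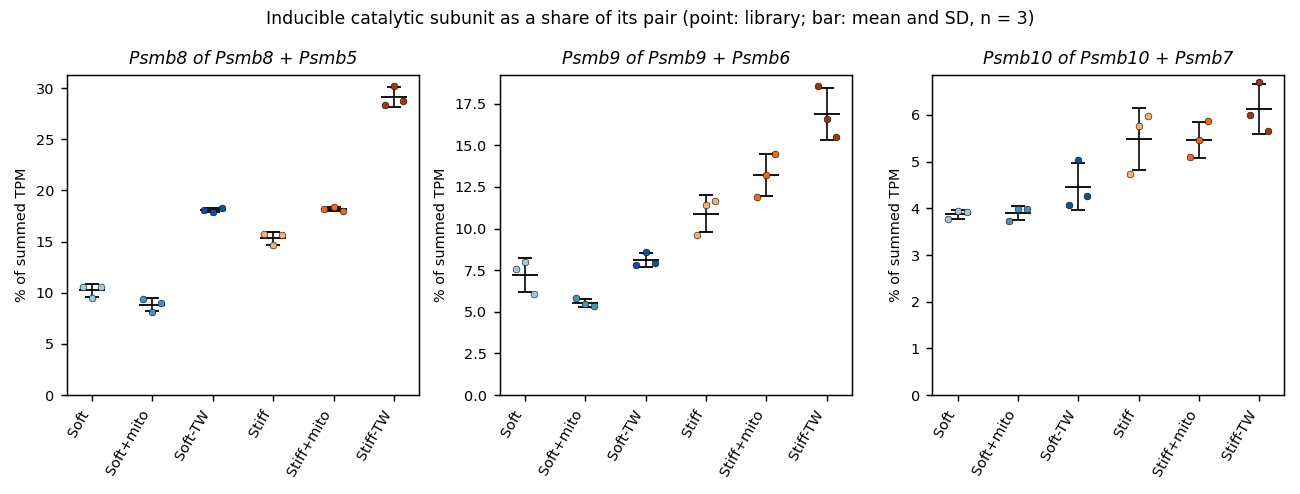
Share of the inducible subunit in the summed TPM of its pair (vertical axis, percent) by group (horizontal axis). Points are libraries, bars the mean and SD of 3. The Psmb8 share runs from 8.83% in Soft+mito to 29.1% in Stiff-TW, and the Psmb9 share from 5.55% to 16.9% in the same groups.

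Nlrc5, the class I transactivator, was highest in Stiff, fell with mito on each matrix, and fell with TW on the stiff matrix. It had 7.93, 7.75 and 6.96 TPM in Soft and 9.73, 9.90 and 9.63 in Stiff, its highest group. With mito it had 6.20, 5.82 and 5.20 TPM on the soft matrix and 8.20, 8.97 and 8.47 on the stiff. With TW it had 7.06, 7.08 and 6.51 TPM on the soft and 6.53, 6.83 and 6.62 on the stiff, so the matrices overlapped under TW. The log2 change was 0.47 ± 0.051 in Stiff against Soft and -0.52 ± 0.052 in Stiff-TW against Stiff (edgeR adjusted p 7.6e-14 and 8e-16). It was -0.02 ± 0.055 in Soft-TW against Soft, and the difference between the TW changes was -0.49 ± 0.076 (edgeR adjusted p 4.22e-08). With mito Nlrc5 fell by 0.28 ± 0.057 on the soft and by 0.20 ± 0.050 on the stiff matrix (edgeR adjusted p 4.38e-05 and 0.000866). Counts of Nlrc5 were divided over 6 transcripts whose shares varied widely between replicates. The curated one, NM_001033207, took 4.22% to 32.6% of them as group means (SD up to 23). With curated transcripts alone none of these calls held (adjusted p 0.141 to 0.811), but each called change kept its direction and was larger. It was then 0.793 in Stiff against Soft, -3.07 in Stiff-TW against Stiff, -2.26 and -0.715 with mito on the soft and stiff matrix, and -3.71 for the difference between the TW changes. The curated transcript had a mean of 21.6 counts in Stiff-TW and 23.6 in Soft+mito, so sizes that involve these groups rest on few counts.

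Across the 18 libraries the levels of H2-K1, H2-D1, B2m, Tap1 and Psmb8 had pairwise correlations of 0.922 to 0.986 (Pearson, log2 of scaled counts, CPM). Tap2 and Psmb9 had 0.932 with each other. With the genes just named, Tap2 had 0.634 (B2m) to 0.861 (H2-K1) and Psmb9 0.666 (B2m) to 0.872 (Psmb8). Tapbp had -0.711 with Nlrc5 and at most 0.611 with any other member. The libraries share 6 groups, so these values mainly describe the group means. Outside the 10 genes, and among 9863 candidates of at least 5 CPM, those most like H2-K1 were Eif3h (0.992) and Eef2 (0.991), those most like H2-D1 were Apol9a (0.990) and Nop53 (0.985), and those most like B2m were Tpt1 (0.990) and Rps3a1 (0.987). For Tap1 they were Eef2 and Bst2 (0.990 each), for Tap2 Mmp2 (0.984) and Neurl1b (0.977), and for Tapbp Arsa and Dap (0.983 each). For Psmb8 they were Rbm33 and Map1a (0.989 each), for Psmb9 Ntn1 (0.988) and Man2a2 (0.978), and for Nlrc5 Trib3 (0.966) and Rps6ka3 (0.957). Psmb10 had no close match (Stat5a 0.856, Rpsa 0.837).

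Other class I heavy chains and class I-like genes were mostly higher in the same comparisons. Of 12 tested, 9 rose and 2 fell in Stiff against Soft, 8 rose and 1 fell in Soft-TW, 9 rose and 1 fell in Stiff-TW, 6 rose and the other 6 were not called in Stiff+mito, and 1 rose and 1 fell in Soft+mito, each against its own matrix alone. Of all genes tested, 29.1% were higher and 24.7% lower in Stiff against Soft, 28.9% and 28% in Soft-TW, 35.5% and 34.1% in Stiff-TW, 15.6% and 17.8% in Stiff+mito, and 14.8% and 11.9% in Soft+mito. The list medians were 0.253, 0.379, 0.606, 0.178 and -0.0296 on the log2 scale, in that order. H2-Q4, a nonclassical heavy chain, went from 82.5 ± 1.8 TPM (SD, n = 3) in Soft to 124 ± 2.6 in Stiff, 142.8 ± 1.2 in Soft-TW and 217 ± 2.3 in Stiff-TW. H2-T23, the Qa-1 heavy chain seen by NKG2 receptors, went from 27.0 ± 1.9 TPM in Soft to 45.5 ± 2.0 in Soft-TW, and from 30.8 ± 0.92 in Stiff to 64.0 ± 1.9 in Stiff-TW. Its log2 changes with TW were 0.86 and 1.12. H2-M3, which presents formylated peptides and carries the motif pair above, rose by 0.46 in Stiff against Soft. Mr1, which presents vitamin B metabolites, fell by 0.18 in Soft+mito and rose by 0.24 in Stiff+mito, and the neonatal Fc receptor chain Fcgrt rose by 0.25 in Stiff+mito. H2-Q6 rose by 0.82 in Stiff against Soft, by 1.04 in Soft-TW and by 0.77 in Stiff-TW, and Mill2, a class I-like gene outside the MHC, by 0.36, 0.91 and 1.05. Procr, a class I-like receptor for protein C, fell by 0.31 in Stiff against Soft. Heavy chains of the Q and T regions are near-identical copies in part, so counts may be divided between them.

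The chaperones and trimming enzymes of class I went in both directions. Of 10 tested, 5 rose and 4 fell in Stiff against Soft, 3 rose and 4 fell in Soft-TW, 4 rose and 3 fell in Stiff-TW, 3 rose and 1 fell in Soft+mito, and 1 rose and 3 fell in Stiff+mito. Over all genes 53.8%, 56.9%, 69.6%, 26.7% and 33.5% were called in either direction in these comparisons, so the 7 of 10 in Stiff-TW were at the background. Erap1, which trims peptides in the endoplasmic reticulum, rose by 0.44 in Stiff against Soft and fell by 0.42 in Stiff-TW against Stiff. Calr, a lectin chaperone of the loading complex, fell by 0.37 in Stiff against Soft and rose by 0.34 in Stiff-TW, and Pdia3, its thiol oxidoreductase partner, fell by 0.15 and rose by 0.23 in the same comparisons. Canx, the membrane lectin chaperone, fell by 0.15 and 0.22 with TW on the soft and stiff matrix. The tapasin-related Tapbpl fell by 0.34 in Stiff against Soft and was not called with mito or TW. Uggt1, which returns misfolded glycoproteins to the lectin chaperones, rose by 0.26 in Stiff against Soft and fell by 0.18 and 0.37 with TW on the soft and stiff matrix, and the aminopeptidase Lnpep fell by 0.49 and rose by 0.14 and 0.30 in the same comparisons. Hspa5, the general chaperone of the endoplasmic reticulum, rose with TW from 992 ± 5.9 TPM in Soft to 1446 ± 28 in Soft-TW and from 1069 ± 7.9 in Stiff to 1752 ± 14 in Stiff-TW.

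Constitutive proteasome genes, activators and assembly factors were mostly lower with TW. Of 12 tested, 2 rose and 7 fell in Soft-TW, 3 rose and 9 fell in Stiff-TW, 4 rose and 4 fell in Stiff against Soft, 8 rose and the other 4 were not called in Soft+mito, and 5 fell and the other 7 were not called in Stiff+mito. Lower calls took 28% of all genes in Soft-TW, 34.1% in Stiff-TW, 24.7% in Stiff against Soft and 17.8% in Stiff+mito, and higher calls 14.8% in Soft+mito. Psme1 and Psme2, the interferon-induced PA28 activator, rose by 0.21 and 0.10 in Stiff-TW against Stiff and by 0.16 and 0.13 in Stiff against Soft. Psme3, the nuclear activator, fell by 0.71 in Stiff-TW, Psme4, the PA200 activator, by 0.29 and Psmb3, a structural subunit, by 0.58. Pomp, which assembles the core particle, rose by 0.22 in Soft+mito and fell by 0.11 in Stiff+mito and by 0.17 in Stiff-TW. Psmb5, Psmb6 and Psmb7 rose by 0.17, 0.14 and 0.18 in Soft+mito. In TPM, Psmb6 overlapped between Soft (201 to 217) and Soft+mito (209 to 223), while Psmb5 and Psmb7 did not. These small rises were not recomputed on another scale.

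Most genes in a joint list of transcription factors of class I promoters and of interferon signalling rose with TW. Of 28 tested, 17 rose and 2 fell in Soft-TW and 19 rose and 3 fell in Stiff-TW, against 10 and 7 in Stiff against Soft, 1 and 3 in Soft+mito, and 3 and 4 in Stiff+mito. Over all genes 28.9% were higher in Soft-TW and 35.5% in Stiff-TW, and 53.8%, 26.7% and 33.5% were called in either direction in the other 3 comparisons. Irf7, an amplifier of type I interferon, went from 1.59 ± 0.65 TPM in Soft to 11.6 ± 1.1 in Soft-TW and from 1.63 ± 0.28 in Stiff to 17.1 ± 1.2 in Stiff-TW. Its log2 changes were 2.99 ± 0.15 and 3.43 ± 0.14 (edgeR adjusted p 3.48e-35 and 9.13e-44), and its libraries did not overlap. Irf1, an activator of class I and immunoproteasome genes, rose by 0.17 in Stiff against Soft and by 0.12 and 0.34 with TW on the soft and stiff matrix, and fell by 0.22 and 0.19 with mito on the soft and stiff matrix. In TPM the Irf1 libraries of Soft (38.0 to 41.8) overlapped those of Soft-TW (38.3 to 42.1) and of Stiff (40.3 to 43.4). Irf2 rose by 0.58 and 0.78 and Irf9, the DNA-binding part of ISGF3, by 0.56 and 0.91 with TW. Rfx5, a subunit of the RFX complex, rose by 0.19 in Stiff against Soft and by 0.47 in Stiff-TW. It fell by 0.22 in Soft+mito. Other RFX, CREB/ATF and NF-Y genes went in both directions by mean TPM. With TW, Nfyc went from 24.29 to 18.75 on the soft and from 22.01 to 15.91 on the stiff matrix. From Stiff to Stiff-TW, Atf1 went from 98.24 to 81.43 and Creb1 from 17.98 to 16.15. Rfxank had 10.04 in Soft, 8.06 in Soft-TW and 7.27 in Stiff. With TW on the soft and stiff matrix, Nfyb went from 27.64 to 29.4 and from 27.4 to 29.19. Nfya went from 33.76 to 34.34 and from 31.05 to 33. The Soft and Soft-TW libraries overlapped for Nfyb (26.58 to 28.36 and 27.8 to 31.31) and for Nfya (33.07 to 34.75 and 34.01 to 34.95). Those of Stiff and Stiff-TW did not overlap for either gene.

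**Figure D4:**
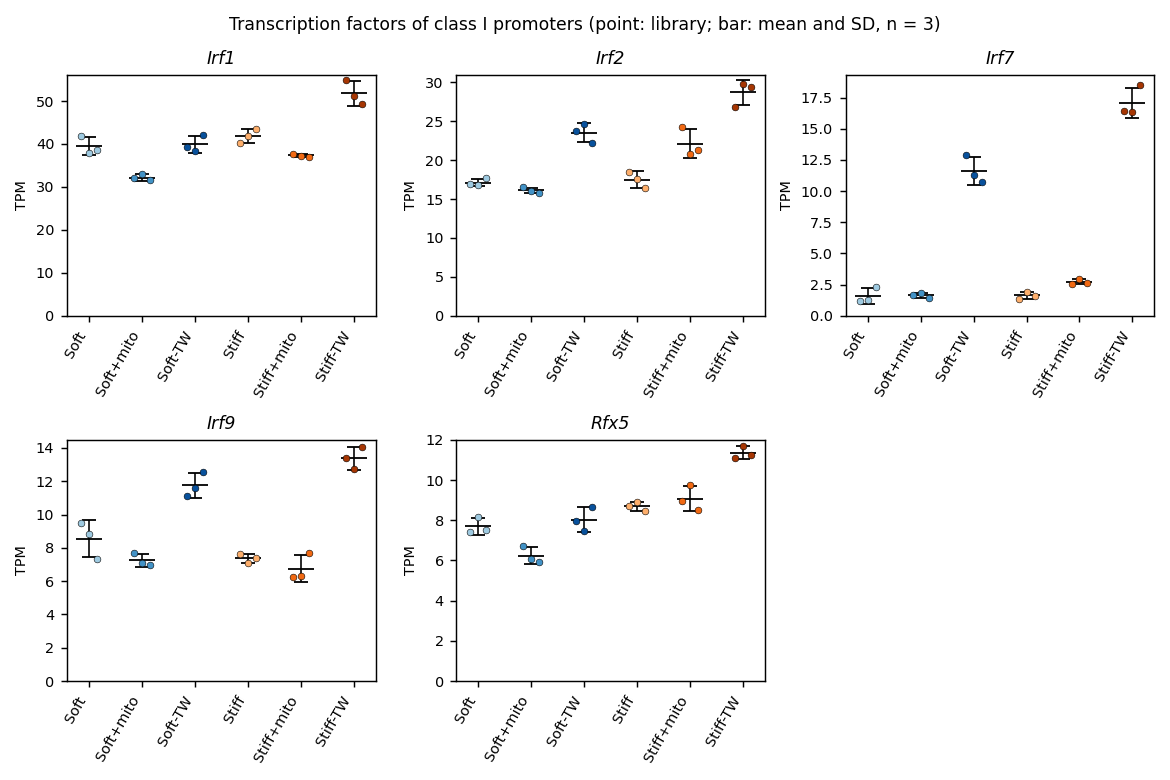
TPM of 5 transcription factors of class I promoters (vertical axis, from 0) by group (horizontal axis). Points are libraries, bars the mean and SD of 3. Irf7 averages 1.59 to 2.72 TPM in the 4 groups without TW, 11.6 under TW on the soft matrix and 17.1 under TW on the stiff.

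Interferon-induced effectors outside the pathway were mostly higher in Stiff and with TW. Of 21 tested, 14 rose and 1 fell in Stiff against Soft (list median 0.466), 15 and 1 in Soft-TW (0.585), 16 and 3 in Stiff-TW (0.56), 3 and 1 in Soft+mito (0.02), and in Stiff+mito 5 rose and 16 were not called (0.0375). Higher calls took 29.1%, 28.9%, 35.5%, 14.8% and 15.6% of all genes in these comparisons. Xaf1 rose by 1.63 ± 0.12 and 2.12 ± 0.11 and Oasl2 by 1.62 ± 0.14 and 1.42 ± 0.11 with TW on the soft and stiff matrix, on the log2 scale. Bst2, which tethers budding virions, went from 109 ± 5.5 TPM in Soft to 148 ± 1.2 in Stiff, 156 ± 1.8 in Soft-TW and 192 ± 3.4 in Stiff-TW. Ifitm3, which blocks viral entry, rose by 0.47 in Stiff against Soft and by 0.39 and 0.49 with TW on the soft and stiff matrix. The RNA sensor Ddx58 (RIG-I) rose by 0.63 and 0.90 with TW and was not called in Stiff against Soft (0.08), while the RNA sensor Ifih1 rose by 0.75 in Stiff against Soft and by 0.35 in Soft-TW and was not called in Stiff-TW (-0.02). Cxcl10, a chemokine that draws T cells, had 3.92 ± 0.99 TPM in Soft and 10.1 ± 1.5 in Stiff, a log2 change of 1.41 ± 0.18 (edgeR adjusted p 3.4e-11). It had 3.49 ± 0.64 TPM in Soft-TW and 4.45 ± 0.61 in Stiff-TW.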

How the data were processed

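Poly(A) RNA of 18 libraries (6 groups of 3) was sequenced as stranded 150 bp paired ends, per the labels' protocols. The build is mm10, per the submitters' processing notes. The sources used here name no aligner, quantifier or annotation. The authors deposited estimated counts (expected counts) and TPM per gene, and estimated counts for 64855 transcripts, 28562 of them curated. At a tolerance of 0.001, 10.9% of the gene counts were not whole. The 44 columns of averages were not used.

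Counts were rounded and tested with edgeR 4.0.16 (R 4.3.3): filterByExpr, TMM scaling, 1 robust quasi-likelihood fit of all libraries (group means), 9 two-sided comparisons, Benjamini-Hochberg adjustment over 12245 genes. Interactions are the log2 change on the stiff minus that on the soft matrix. Standard errors are the log2 change divided by the root of F, and so approximate. TPM served for levels and shares. Tests were checked on simulated data. Depth was 16054637 to 16887244 estimated counts a library. Alternatives were DESeq2 1.42.0, limma 3.58.1 on log2(TPM + 1), library totals as the scale, no filter on low counts, the compared groups alone, a replicate block, curated transcripts alone, and each library left out.

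Named are all 10 genes, up to 4 of each list by smallest adjusted p in the 5 comparisons with an untreated group, a few genes of known role fixed by name, and the 2 genes most like each member. A gene named for 1 comparison may be given in another. Not every gene that the rule names is reported here. The lists cover other class I genes, loading and chaperones, the constitutive proteasome, transcription factors, interferon effectors, class II and ligands. Members and lists were chosen with earlier results of these data known, so they are no independent evidence. Promoter sequences and positions are RefSeq's (GRCm38.p6), and 18257 gene identifiers matched it. The 75-base stretches shared with other genes were counted in GENCODE transcripts.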

Additional observations from a re-analysis of the deposited data

Results flagged for a closer look

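For 8 results the response to a treatment differed between the matrices by the interaction test across all genes (change on the stiff minus change on the soft matrix, edgeR's quasi-likelihood test, adjusted over all genes). For mito, 23.6% of all genes were called in this way, and 5 of the 10 genes were. For TW it was 36.1% of all genes and 3 of the 10.

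With mito, Psmb9 had an interaction of 0.5283 (adjusted p 0.0116), from -0.28 on the soft and 0.25 on the stiff matrix. Its call was lost with DESeq2 (adjusted p 0.0678) and with curated transcripts alone (0.474, adjusted p 0.135). Without Soft replicate 2 it was 0.458 (adjusted p 0.0544) and without Stiff replicate 1 it was 0.427 (adjusted p 0.0589), in a range of 0.00517 to 0.135 over all alternatives. Psmb8 had 0.2919 (adjusted p 0.00388), called under each alternative run. Tapbp had 0.1665 (adjusted p 9.29e-05), from 0.14 on the soft and 0.31 on the stiff matrix, also called under each alternative. Tap2 had 0.148 (adjusted p 0.0124). Its call was lost without Soft replicate 2 (0.127, adjusted p 0.0563), without Soft replicate 3 (0.12, adjusted p 0.0702) and with DESeq2, in a range of 0.000665 to 0.0702. B2m had -0.08042 (adjusted p 0.0448), from 0.14 and 0.06. Its call was lost with DESeq2 (-0.0814), library totals as the scale (-0.0517), the compared groups alone (-0.0676), curated transcripts alone (-0.0623) and limma on log2(TPM + 1) (-0.0236, adjusted p 0.615). It was also lost in 7 of 12 leave-outs: Soft replicate 1 (-0.0622), Soft+mito replicates 2 (-0.0865) and 3 (-0.0556), Stiff replicates 2 (-0.0786) and 3 (-0.07), and Stiff+mito replicates 1 (-0.0831) and 2 (-0.0584). Over all its alternatives the adjusted p ran from 0.00467 to 0.615.

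With TW, Tapbp had 0.4657 (adjusted p 5.62e-23) and was called under each alternative run. Nlrc5 had -0.4942 (adjusted p 4.22e-08), lost only with curated transcripts alone (-3.71, adjusted p 0.276) among the alternatives run. B2m had -0.09915 (adjusted p 0.00653), lost without Stiff-TW replicate 1 (-0.0751, adjusted p 0.0586) and with curated transcripts alone, in a range of 0.000328 to 0.109. No explanation of these differences was tested.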

How the results depend on the processing

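Of 1290 recomputed log2 changes of single genes, 1193 kept their direction and side of the threshold, 52 fell short of it, 12 newly passed it and 33 changed sign. The changes of sign were all in results not called in the main fit. The 10 calls in Stiff against Soft ranged from 9 to 10 over the alternatives. In Soft+mito against Soft, limma on log2(TPM + 1) called 3 members in place of 5 (30.2% of all genes, in place of 26.7%). The mito interaction had 5 members (23.6% of all genes), 2 with DESeq2 (9.89% of 18361 genes) and 3 with curated transcripts alone (12.1%), and 3 to 6 with a library left out (19.9% to 23.7%). The TW interaction had 3 members (36.1% of all genes), 1 with curated transcripts alone (24.5%) and 2 to 4 with a library left out. With a library left out, 7 to 8 members were called in Stiff+mito against Stiff, and 8 to 9 in Stiff-TW against Soft-TW. The cause was not tested. Curated transcripts alone dropped counts of Nlrc5, 19.8% to 26.1% of those of Psmb9 as group means, and a smaller part of those of H2-K1. B2m kept all its counts, which lay on a curated transcript.

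Signs changed as follows. With limma on log2(TPM + 1), Tap1 (-0.0306) and Tap2 (-0.0407) in Soft+mito against Soft, Psmb10 in Soft-TW against Soft (-0.00665) and in Stiff-TW against Stiff (-0.00475), H2-K1 in the mito interaction (0.0773), and H2-K1 (0.00882), Tap2 (0.0261) and Psmb10 (0.00189) in the TW interaction changed sign. H2-K1 in the mito interaction also did so with library totals (0.0269), no filter (0.00183), the compared groups alone (0.0111) and curated transcripts (0.00542), as did Nlrc5 in Soft-TW against Soft with curated transcripts (0.641). With a library left out, the mito interaction of H2-K1 ran from -0.0146 to 0.0161. Nlrc5 ran from -0.079 to 0.0145 and Psmb10 from -0.00756 to 0.173 in Soft-TW against Soft, and Psmb10 from -0.0278 to 0.138 in Stiff-TW against Stiff. The TW interaction ran from -0.0187 to 0.0277 for H2-D1, from -0.0636 to 0.00169 for Tap2, from -0.000504 to 0.0759 for Psmb8 and from -0.129 to 0.0639 for Psmb10.

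Same-numbered libraries did not deviate together (correlations of -0.108 to 0.101), so the numbers were not taken as pairs. With the replicate block the calls were 10 in Stiff against Soft, 5 in Soft+mito, 9 in Stiff+mito, 7 in Soft-TW and 9 in Stiff-TW, as without it.

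The share of called genes that were higher depended on the scale. It was 55.5% with TMM, 38.3% with library totals and 12.5% with limma on log2(TPM + 1) in Soft+mito against Soft, 54.1%, 44.1% and 35.3% in Stiff against Soft, 50.8%, 38.6% and 28.8% in Soft-TW against Soft, 44.3%, 58.1% and 79.5% for the mito interaction, and 45.3%, 47.8% and 62.1% for the TW interaction. No median of all genes moved by over 0.1. Psmb9 and Psmb10 had the fewest counts of the 10 genes, 69 to 212 and 104 to 151 a library.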

Other observations

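Class II genes were at low levels in these libraries. Of 10 class II genes listed, 8 were in the table and 5 passed the filter. Ciita, the class II transactivator and a member of the same protein family as Nlrc5, had 0.0567 to 0.12 TPM as group means and was called in none of the 5 comparisons with an untreated group (edgeR adjusted p 0.051 to 0.974). Cd74, the invariant chain, went from 6.65 ± 0.11 TPM (SD, n = 3) in Soft to 10.3 ± 0.13 in Soft+mito and 9.67 ± 0.19 in Soft-TW, log2 changes of 0.73 ± 0.13 and 0.66 ± 0.14 (edgeR adjusted p 6.5e-06 and 1.75e-05). On the stiff matrix it was not called with either treatment (7.18 ± 0.78 TPM alone, 7.74 ± 1.5 with mito, 7.07 ± 0.26 with TW), and the changes differed between the matrices by -0.61 ± 0.20 for mito and -0.60 ± 0.20 for TW (edgeR adjusted p 0.0141 and 0.0121). Ctss (cathepsin S, which cuts the invariant chain) had 0 counts in each Stiff library and 13 to 23 in Stiff-TW, and 1 to 2 in Soft and 22 to 42 in Soft-TW (edgeR adjusted p 2.68e-12 and 1.87e-13). No fold is given for it at these counts. H2-DMa, a subunit of the class II peptide exchanger, had 14.2 ± 1.3 TPM in Soft and 7.76 ± 0.14 in Stiff, a fall by 0.90 ± 0.086 on the log2 scale, and fell further in Stiff-TW (4.29 ± 0.48 TPM). H2-DMb1, another subunit of that exchanger, did not fall. It was not called in Stiff against Soft (0.40 ± 0.21, edgeR adjusted p 0.0971). With TW it rose by 0.49 ± 0.21 on the soft and by 0.68 ± 0.18 on the stiff matrix (edgeR adjusted p 0.0332 and 0.000611). Its group means were 3.08 to 6.00 TPM.

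Ligands that target cells show to T and NK cells went in both directions: of 7 tested, 3 rose and 2 fell in Stiff against Soft and in Stiff-TW against Stiff, 4 rose in Soft-TW, 2 rose in Soft+mito, and 2 rose and 2 fell in Stiff+mito. These shares were near those over all genes in the TW comparisons (56.9% called in Soft-TW and 69.6% in Stiff-TW). Over all genes 53.8% were called in Stiff against Soft, 26.7% in Soft+mito and 33.5% in Stiff+mito. Cd274 (PD-L1) rose by 0.52 ± 0.14 in Stiff against Soft and fell by 0.48 ± 0.14 in Stiff-TW against Stiff, at 1.82 to 2.64 TPM. Cd47, the signal that restrains phagocytosis, rose with TW from 109 ± 1.0 to 138 ± 3.2 TPM on the soft matrix and from 112 ± 1.4 to 146 ± 3.7 on the stiff. Ulbp1, a ligand of NKG2D, went from 17.4 ± 2.1 TPM in Stiff to 25.8 ± 1.4 in Stiff-TW, and Pvr, a ligand of DNAM-1, from 38.2 ± 1.7 TPM in Soft to 27.8 ± 1.1 in Stiff.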
